A study of Homo sapiens with 38 samples.

Results

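The BRINP family (BMP/retinoic acid-inducible neural-specific proteins) has 3 members, BRINP1, BRINP2 and BRINP3, and all 3 were read by gene symbol from every count file. They are 3 of the 50778 genes listed in the palbociclib files and of the 50652 listed in the BE2C files. The family was taken up because BRINP2 showed the largest rise with palbociclib in the CHLA15 and CHLA20 lines, and it was thus chosen by its log2 fold changes in those contrasts. Values of all members there are given as a description, without a test.

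RNA-seq was performed in 5 human neuroblastoma cell lines, giving 27 libraries. CHLA15 and CHLA20 cells received 0.3 µM palbociclib and NB1643 and NB1691 cells 3 µM palbociclib for 72 h, each beside control cells of the same line, with 2 libraries per group (16 in all). BE2C cells received 2.5 µM GSK-J4 for 0, 24 or 48 h (2 libraries per time), or an siRNA for 72 h: a control siRNA (siCtrl, 2 libraries) or siKDM6B N1, N2 or N33 (1 library each). No group carried an engineered allele, and the labels do not say whether replicate libraries came from separate cultures, so p-values measure only the spread between libraries.

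BRINP proteins share a membrane attack complex/perforin (MACPF) domain and are made mainly by neurons. Their messages can be induced by retinoic acid and bone morphogenetic proteins (BMPs) in neural cells, and forced BRINP expression is known to slow the passage from G1 to S phase. Palbociclib blocks the same passage by inhibiting the kinases CDK4 and CDK6, GSK-J4 inhibits the histone H3K27 demethylases KDM6A and KDM6B, and neuroblastoma arises from the sympathetic lineage of the neural crest.

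In GRCh37, the build of the files, BRINP1 (ENSG00000078725) is on chromosome 9 from 121915736 to 122131713 on the minus strand. BRINP2 (ENSG00000198797) is on chromosome 1 from 177140094 to 177251558 on the plus strand. BRINP3 (ENSG00000162670) is on chromosome 1 from 190066788 to 190447534 on the minus strand. Their merged exons span 3874, 4492 and 4273 bp, and none of the 3 genes overlapped another gene listed in the files.

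The RefSeq promoter table (GRCh38.p14) held entries for 2 of the 3 members, 1 for BRINP1 and 2 for BRINP3. The 250 bases before each start are shown 5′ to 3′ on the gene's own strand with CpG dinucleotides in capitals. A link between CpG content and the level of a member was not tested.
BRINP1 promoter (chr9:119369436-119369685, minus strand): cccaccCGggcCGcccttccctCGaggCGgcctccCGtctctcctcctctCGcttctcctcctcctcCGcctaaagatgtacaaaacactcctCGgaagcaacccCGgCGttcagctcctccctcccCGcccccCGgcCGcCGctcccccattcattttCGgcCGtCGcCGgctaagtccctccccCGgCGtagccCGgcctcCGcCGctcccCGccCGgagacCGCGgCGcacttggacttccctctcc
BRINP3 downstream promoter (chr1:190475988-190476237, minus strand): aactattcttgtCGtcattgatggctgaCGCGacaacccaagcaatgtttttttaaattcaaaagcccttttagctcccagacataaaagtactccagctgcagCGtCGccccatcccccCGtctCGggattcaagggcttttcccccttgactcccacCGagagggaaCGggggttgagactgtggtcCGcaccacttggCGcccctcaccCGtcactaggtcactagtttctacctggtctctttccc
BRINP3 upstream promoter (chr1:190477865-190478114, minus strand): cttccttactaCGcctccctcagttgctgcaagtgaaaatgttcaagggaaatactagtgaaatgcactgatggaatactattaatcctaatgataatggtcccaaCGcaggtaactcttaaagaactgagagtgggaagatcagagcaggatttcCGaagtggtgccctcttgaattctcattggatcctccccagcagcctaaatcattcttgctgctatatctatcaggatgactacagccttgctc
The BRINP1 window held 28 CpGs, more than 84.1% of the 35116 promoters in the table, whose median was 11. The downstream BRINP3 window held 12 CpGs and the upstream window 3. Motifs were searched on both strands as E2F cores TTCCCGC and TTGGCGC, the cell cycle homology region TTTGAA, the retinoic acid receptor motif AGGTCA and the MYC E-box CACGTG. The downstream BRINP3 window held TTGGCGC at -53, AGGTCA at -31 and TTTGAA (opposite strand) at -193, counted from the start site. These occur in 2.56%, 12.1% and 13.3% of all such windows, and TTCCCGC and CACGTG in 5.52% and 6.34%. The BRINP1 and upstream BRINP3 windows held none of the 5 motifs. A match describes letters only, and no binding was measured here.

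Total counts on genes ranged from 36186567 to 93011010 per library, so that 3 counts, taken as the floor, corresponded to 0.0396 to 0.0844 CPM (counts scaled to library size with a TMM factor). The 4 NB1691 libraries stood apart. Their summed fibroblast markers were at 16341 to 22029 CPM and their mesenchymal markers at 64329 to 80733 CPM, against 13.3 to 313 and 389 to 1475 CPM in the other 3 palbociclib lines. In each arm of NB1691, 5 of 5 fibroblast genes were at or over 1 CPM, as in CHLA15 and CHLA20. In NB1691 the 8 adrenergic neuroblastoma markers summed to 284 to 356 CPM, against 1925 to 3342 CPM in the other 3 lines. MYCN in NB1691 controls (86.3 CPM) lay below NB1643 controls (3175 CPM) and above CHLA15 and CHLA20 controls (2.29 and 3.14 CPM). KDM6B in libraries labelled siKDM6B (8.99, 7.11 and 8.26 CPM for N1, N2 and N33) was not below the range of the siCtrl libraries (6.47 and 8.76 CPM). The part of these differences in the BRINP values was not tested. In such bulk libraries, fewer cells of a type and less RNA per cell cannot be told apart.

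BRINP1 was the member counted above the floor in all 27 libraries, at 280 to 998 counts in each of the palbociclib libraries and at 4 to 38 counts in each of the BE2C libraries. Among untreated cells the NB1691 control libraries had 9.81 and 10.6 CPM and the CHLA20 control libraries 9.31 and 9.46 CPM. The NB1643 control libraries had 5.17 and 5.52 CPM and the CHLA15 control libraries 5.20 and 5.12 CPM. The levels thus formed a higher pair of lines and a lower pair whose own members overlapped (NB1643 and CHLA15), with BE2C far below both. NB1691 exceeded NB1643 by 0.94 on the log2 scale (SE 0.082, 95% interval 0.77 to 1.11, edgeR quasi-likelihood test, adjusted p = 3.41e-09), where 80.7% of the 22133 genes tested differed between these control groups, 88.4% had groups that did not overlap, and the median over all genes was 0.13. The difference was 0.52 with library totals in place of TMM factors.

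With palbociclib, BRINP1 libraries of NB1691 reached 16.2 and 16.3 CPM, both above the 9.81 and 10.6 CPM of the controls. The rise was 0.66 on the log2 scale (SE 0.075, 95% interval 0.51 to 0.82, edgeR adjusted p = 1.45e-06), and 89.4% of the genes tested had a smaller log2 change. In NB1643 the treated libraries had 6.00 and 5.74 CPM against 5.17 and 5.52 CPM. These groups did not overlap, as for 62.5% of all genes tested there (70.3% in NB1691), but the difference of 0.14 (SE 0.088, 95% interval -0.045 to 0.32) did not pass the test (edgeR adjusted p = 0.227), and without the NB1691 libraries it was 0.11 (adjusted p = 0.352). BRINP1 was thus the only member of 3 that passed in NB1691, beside 32.8% of all genes tested, and no member passed in NB1643, beside 39.9%. Both lines had the same dose and time, and the difference between their BRINP1 changes was 0.52 (SE 0.12, 95% interval 0.28 to 0.77, edgeR adjusted p = 0.00278), a contrast in which 22% of genes passed.

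In the CHLA lines, which received a lower dose, BRINP1 was described only. CHLA15 treated libraries had 9.91 and 10.3 CPM against 5.20 and 5.12 CPM, a log2 difference of 0.97 (SE 0.082). CHLA20 treated libraries had 15.6 and 14.2 CPM against 9.31 and 9.46 CPM, a log2 difference of 0.66 (SE 0.076). Treated and control libraries did not overlap in either line. BRINP1 and BRINP2 both had non-overlapping, higher groups in these lines, where 63.3% (CHLA15) and 60% (CHLA20) of the genes tested did not overlap and 29.8% and 29.6% passed the test. Nothing is read from these counts because the contrasts chose the family.

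**Figure D1:**
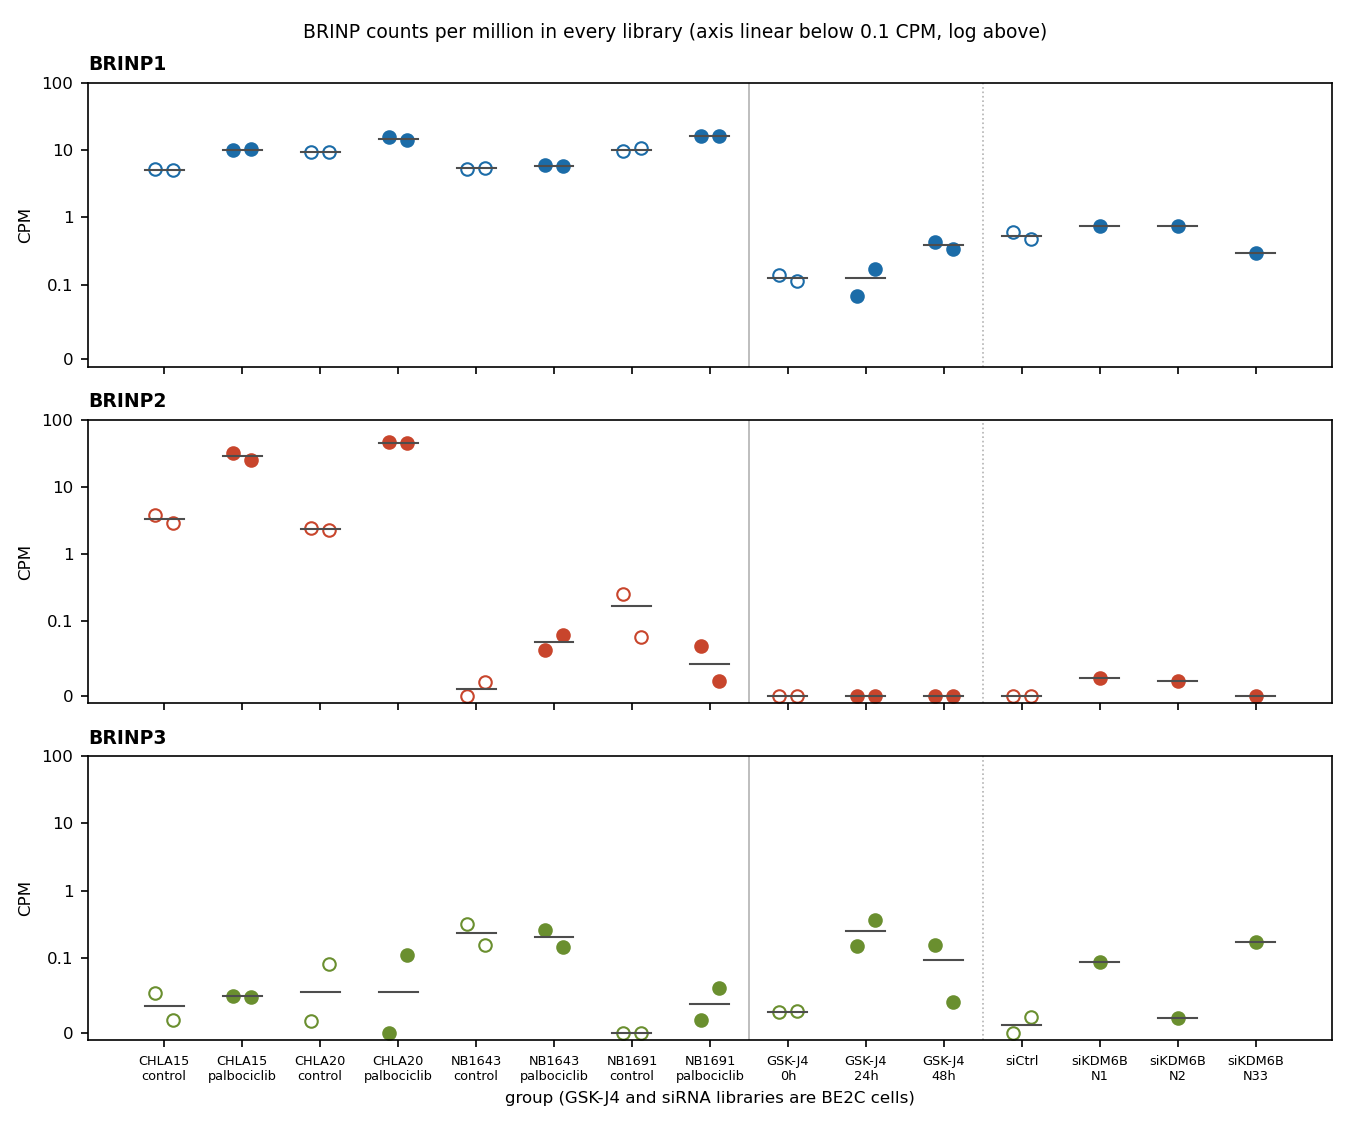
TMM-scaled CPM (y axis, linear below 0.1 and logarithmic above) of BRINP1, BRINP2 and BRINP3 in 27 libraries, each point 1 library and each line a group mean, with open points for untreated, 0 h or siCtrl cells. BRINP1 lies above the other members in every NB1643 and NB1691 library, BRINP2 lies above them in the 4 treated CHLA libraries at 25.03 to 45.6 CPM, and BRINP3 stays at or below 0.362 CPM.

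BRINP2 was the member with the widest range of levels. CHLA15 control libraries had 3.77 and 2.85 CPM, and palbociclib-treated libraries 31.8 and 25.03 CPM. CHLA20 control libraries had 2.47 and 2.25 CPM, and treated libraries 45.6 and 44.4 CPM. Every treated library thus exceeded every control library of its line, with ratios of means of 8.58 in CHLA15 and 19.0 in CHLA20. On the log2 scale these changes were 3.08 (SE 0.14) and 4.25 (SE 0.15), and they were 3.08 and 4.24 without the NB1691 libraries. They rest on 450 and 3525 summed counts in CHLA15 and on 282 and 5770 in CHLA20.

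The place of BRINP2 in the ranking that chose it depended on the minimum level, and is given as a description. Among genes averaging at least 1 CPM over all 16 libraries it was 18th of 15088 in CHLA15 and 5th in CHLA20 by log2 change. Among those of them that also passed the test without overlap it was 4th of 2923 in CHLA15 and 4th of 2767 in CHLA20. Among genes averaging at least 1 CPM over the line's own 4 libraries it came first of 13954 in CHLA15 and first of 13995 in CHLA20. In this last ranking the genes that followed in CHLA15 were RP11-277P12.20 at 2.98, AC106869.2 at 2.67 and GPR22 at 2.42. In CHLA20 they were MARCH1 at 3.26, LINC01561 at 3.16 and RP11-277P12.20 at 2.72. With no such minimum, 97 genes in CHLA15 and 24 in CHLA20 had larger fitted changes, of which 92 and 24 had at most 3 counts in each control library. These included, with 0 counts in controls, CPA4, ANO2 and HTR2C in CHLA15 and ACKR3 and AC006050.2 in CHLA20.

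In the remaining lines BRINP2 lay near the counting limit. It passed the count filter only through the CHLA libraries, where it is high and whose contrasts chose it. Its p-values in and between NB1643 and NB1691 are therefore no support by themselves. NB1643 control libraries had 0 and 1 counts and treated libraries 4 and 4 counts. The ratio of summed, depth-scaled counts was 8.80 (exact 95% interval 1.18 to 391, counting error only). The groups did not overlap, but the difference did not pass the edgeR test (adjusted p = 0.126), whereas it passed when no filter on low counts was applied (adjusted p = 0.0367). The fitted change depends on the prior count and is no bound.

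NB1691 control libraries had 16 and 6 BRINP2 counts and treated libraries 4 and 1, so that here the treated libraries lay below the controls. The log2 difference was -1.77 (SE 0.82, 95% interval -3.50 to -0.039) and did not pass (edgeR adjusted p = 0.112). It passed without the filter (adjusted p = 0.0248), with DESeq2 (adjusted p = 0.0368) and without NB1691 control replicate 2 (adjusted p = 0.0329). The difference between the NB1691 and NB1643 changes was -4.62 (SE 1.64, edgeR adjusted p = 0.0517). It passed with DESeq2 (adjusted p = 0.0121) and without the filter (adjusted p = 0.00255). Untreated NB1691 cells had 22 summed counts and untreated NB1643 cells 1 (ratio 19.98, exact interval 3.23 to 825, edgeR adjusted p = 0.00340), but the call was lost without NB1643 control replicate 1 (adjusted p = 0.0618) or NB1691 control replicate 1 (adjusted p = 0.0521).

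In BE2C cells BRINP2 was at 0 counts in all 6 GSK-J4 libraries and both siCtrl libraries. It had 1 count in each of the siKDM6B N1 and N2 libraries and 0 in the N33 library. The 11 BE2C libraries thus held 2 BRINP2 counts among 506566028, against 10063 among 1000506772 in the 16 palbociclib libraries. BRINP2 did not enter the BE2C tests, and a change was not detectable at this depth.

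**Figure D2:**
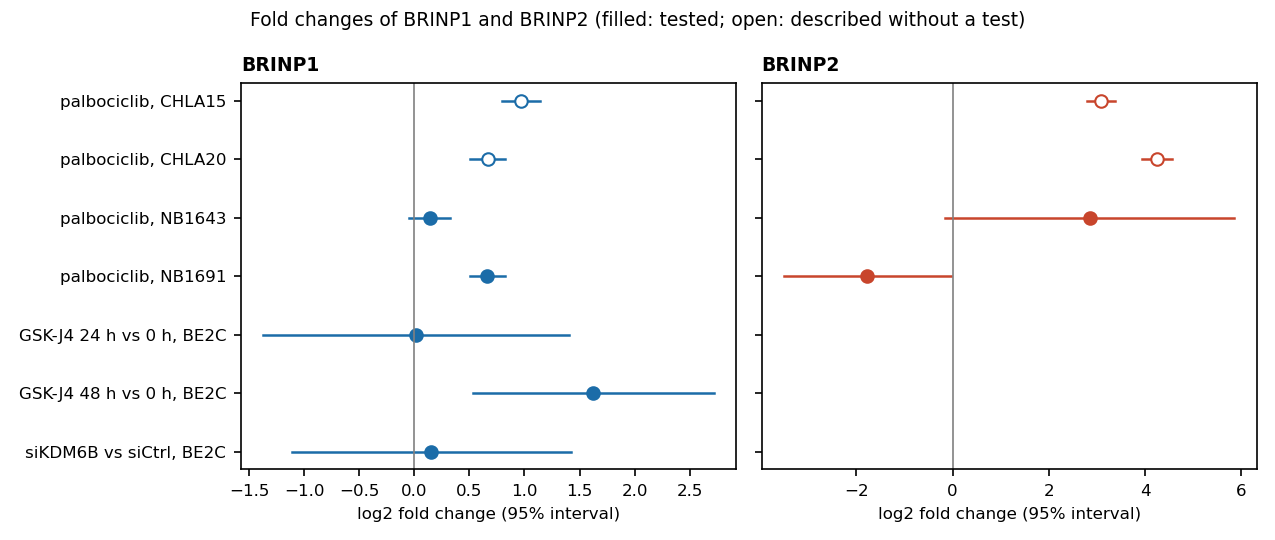
Log2 fold changes with 95% intervals (x axes, separate scales) of BRINP1 and BRINP2 in each comparison (y axis), filled points for tested contrasts and open points for the CHLA contrasts, which are described only. Intervals are not adjusted for the number of genes. Among tested contrasts, the BRINP1 interval lies above 0 in NB1691 and at 48 h of GSK-J4. In the GSK-J4 fit BRINP1 passed the filter only through the 48 h libraries. Its intervals in the CHLA contrasts also lie above 0. The BRINP2 points lie on opposite sides of 0 in NB1643 and NB1691, with fitted values that rest on few counts. BRINP2 passed the filter only through the CHLA libraries.

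BRINP3 was counted at 23 or fewer in every library. NB1643 held the most among the palbociclib lines, with 23 and 8 counts in control and 17 and 7 counts in treated libraries. The groups overlapped, and the log2 difference of -0.22 (SE 0.63, 95% interval -1.54 to 1.11) did not pass (edgeR adjusted p = 0.854). CHLA15 libraries had 4 and 1 counts in controls and 3 and 3 with palbociclib, CHLA20 libraries 1 and 5 in controls and 0 and 7 with palbociclib.

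NB1691 control libraries had 0 and 0 BRINP3 counts and treated libraries 1 and 3, all at or under the floor, so that no fold change is given. Untreated NB1643 cells exceeded untreated NB1691 cells in BRINP3 (edgeR adjusted p = 0.000355), at least 5.33-fold for the mean of the NB1643 controls (0.314 and 0.153 CPM) when the NB1691 libraries are set at the floor of 3 counts per library. BRINP3 passed the count filter only through NB1643 libraries, the line where it is high, and with no filter the adjusted p was 3.14e-07. Calls of all 3 members in this contrast stand beside 80.7% of all genes called, so that the count of 3 is near the background.

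Levels were compared between members per kb of exon (RPKM, from CPM and the merged exon length). In CHLA15 the family summed to 1.96 to 2.19 RPKM in controls and 8.24 to 9.64 RPKM with palbociclib, and the BRINP2 share went from 32.4 to 38.3% to 67.6 to 73.4%. In CHLA20 the sum went from 2.96 to 2.97 RPKM to 13.6 to 14.2 RPKM, and the BRINP2 share from 16.9 to 18.6% to 71.7 to 72.8%. BRINP2 thus replaced BRINP1 as the larger part of the family in treated CHLA libraries. In NB1643 and NB1691 BRINP1 made up 94.8 to 99.6% of the family in every library, at sums of 1.41 to 1.62 RPKM and 2.59 to 4.23 RPKM.

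**Figure D3:**
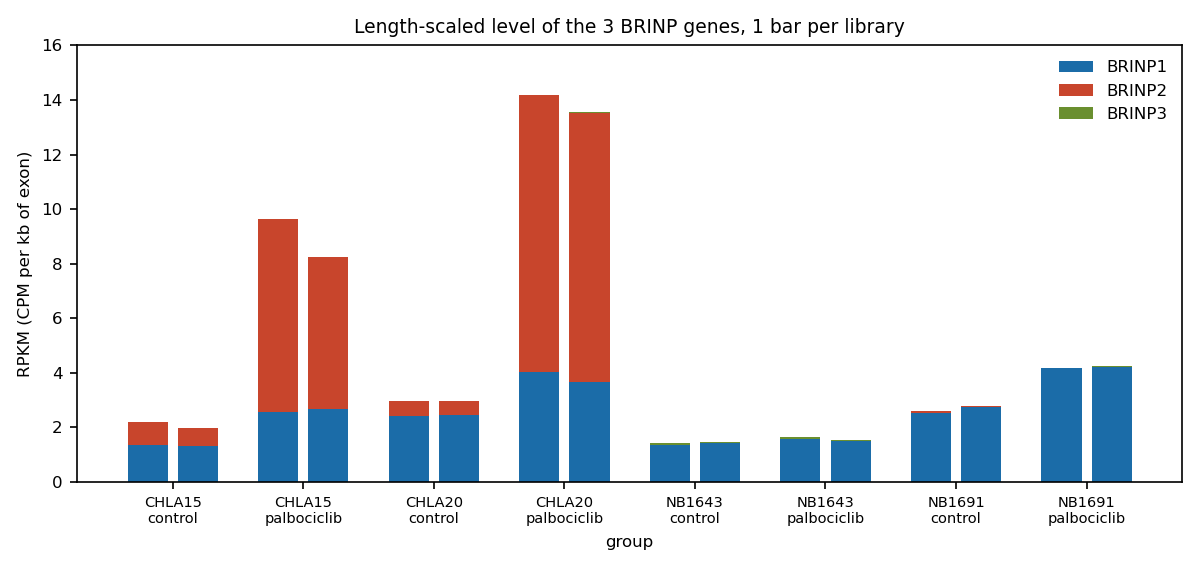
Stacked RPKM (CPM per kb of merged exon) of the 3 BRINP genes in the 16 palbociclib-experiment libraries, 1 bar per library, by group. The bars of treated CHLA15 and CHLA20 libraries reach 8.24 to 14.2 RPKM and consist mostly of BRINP2, while the NB1643 and NB1691 bars consist almost wholly of BRINP1.

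GSK-J4 was examined to see whether the demethylase inhibitor moved the family in BE2C cells, without an untreated control at 24 or 48 h. BRINP1 had 5 and 4 counts (0.138 and 0.113 CPM) at 0 h and 4 and 8 counts (0.0843 and 0.170 CPM) at 24 h. It had 28 and 17 counts (0.432 and 0.344 CPM) at 48 h, above every earlier library. The log2 difference was 0.019 at 24 h (SE 0.69, 95% interval -1.37 to 1.41, edgeR adjusted p = 0.985) and 1.62 at 48 h (SE 0.54, 95% interval 0.53 to 2.72, adjusted p = 0.00722). From 24 to 48 h it was 1.61 (SE 0.50, adjusted p = 0.00597). In the siRNA experiment, which was scaled separately, siCtrl libraries of BE2C cells had BRINP1 at 0.597 and 0.470 CPM, above the 48 h libraries.

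The background was large, as 71.5% of the 17734 genes tested passed at 48 h against 0 h and 53.9% between 48 and 24 h (84.8% and 75.5% had groups that did not overlap), while 92.3% and 98.2% of the genes had a smaller change than BRINP1. BRINP1 passed the count filter only through the 48 h libraries, where it is high, so that these p-values are no support by themselves. With no filter they were 0.00994 at 48 h and 0.00826 for 48 h against 24 h (edgeR, adjusted). The 48 h call was lost with DESeq2 (adjusted p = 0.0761), without 0 h replicate 2 (adjusted p = 0.0732) and without 48 h replicate 1 (adjusted p = 0.0774). The 48 h to 24 h call was lost with DESeq2 (adjusted p = 0.0887), without 24 h replicate 1 (adjusted p = 0.140) and without 48 h replicate 1 (adjusted p = 0.0901).

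BRINP3 had 1 and 1 counts at 0 h, 7 and 17 at 24 h and 10 and 2 at 48 h. The 24 h libraries were thus the highest, and the 48 h libraries overlapped them. BRINP3 did not pass the count filter, and the ratio of summed counts was 9.12 at 24 h (exact 95% interval 2.26 to 79.6, counting error only) and 3.77 at 48 h (0.840 to 34.7). With no filter, the 24 h difference passed the edgeR test (adjusted p = 0.00403) and the 48 h difference did not (adjusted p = 0.199). At 24 h 55.3% of the genes that passed the filter were called and 75.3% had groups that did not overlap.

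The siRNA comparison set libraries labelled siKDM6B beside siCtrl libraries of BE2C cells. KDM6B was at 8.99, 7.11 and 8.26 CPM with N1, N2 and N33, against 6.47 and 8.76 CPM in siCtrl libraries. A depletion of KDM6B was thus not seen in these RNA counts, and its effect on the family cannot be read from them. BRINP1 had 24 and 22 counts (0.597 and 0.470 CPM) in siCtrl libraries. It had 31 counts (0.733 CPM) with siKDM6B N1, 38 counts (0.746 CPM) with N2 and 14 counts (0.3002 CPM) with N33. The siRNAs lay on both sides of the controls, and the log2 difference was 0.15 (SE 0.53, 95% interval -1.11 to 1.42, edgeR adjusted p = 0.950). BRINP3 had 0 and 1 counts in siCtrl libraries and 4, 1 and 8 with N1, N2 and N33, so that the groups overlapped, whereas 33.1% of the genes tested did not overlap.

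No gene passed this siRNA test in edgeR (0% of 17472; smallest adjusted p = 0.279), while 1615 had an unadjusted p under 0.05 and DESeq2 called 164. The N33 library stood apart, with 15 proliferation markers summing to 1172 CPM against 2858 to 4039 CPM in the other 4 libraries. MYCN was at 466 CPM in that library and at 1605 CPM in siCtrl libraries.

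Of 9 other genes with a MACPF domain, 4 were tested in the palbociclib experiment. Those that rose and fell were 2 and 1 in each CHLA line and 2 and 0 in each of NB1643 and NB1691. Among all genes tested, 14.2%, 13.7%, 20.3% and 17.4% rose in CHLA15, CHLA20, NB1643 and NB1691, and 15.6%, 15.9%, 19.7% and 15.5% fell. The one that fell was C7, a complement component, by 1.13 in CHLA15 and 1.30 in CHLA20 (edgeR adjusted p = 7.02e-09 and 1.18e-09). C7 rose by 0.82 in NB1691 (edgeR adjusted p = 0.0111), from only 0.414 to 0.731 CPM. Controls of CHLA15 and CHLA20 had 38.9 and 33.6 CPM. With GSK-J4, C7 fell by 1.17 at 24 h and 0.59 at 48 h (edgeR adjusted p = 1.13e-08 and 0.000236). The astrotactins ASTN1 and ASTN2 of this list act in neuronal migration. ASTN1 lies 6.0 kb before BRINP2 on chromosome 1 (176826438 to 177134109). Its mean level with palbociclib against control was 46.1 against 19.1 CPM in CHLA15, 56.0 against 21.4 CPM in CHLA20, 41.9 against 21.9 CPM in NB1643 and 5.88 against 3.58 CPM in NB1691. ASTN1 rose in all 4 lines, by 1.27 (SE 0.071, edgeR adjusted p = 3.37e-10), 1.38 (SE 0.070, 7.90e-11), 0.93 (SE 0.070, 4.76e-09) and 0.72 (SE 0.098, 1.51e-05) on the log2 scale.

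ASTN2 rose in CHLA15 by 0.74, in CHLA20 by 1.03 and in NB1643 by 0.61 on the log2 scale (edgeR adjusted p = 1.21e-06, 1.68e-08 and 2.94e-06), and stood at 11.6 against 11.02 CPM in NB1691. In NB1643 ASTN1 stood between 20.5 and 42.6 CPM while BRINP2 beside it was at 0 to 4 counts. In BE2C cells ASTN1 was at 0 to 0.751 CPM and ASTN2 at 82.0 to 188 CPM. ASTN2 rose with GSK-J4 by 0.095 at 24 h and 0.20 at 48 h on the log2 scale (edgeR adjusted p = 0.0195 and 2.31e-06).

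**Figure D4:**
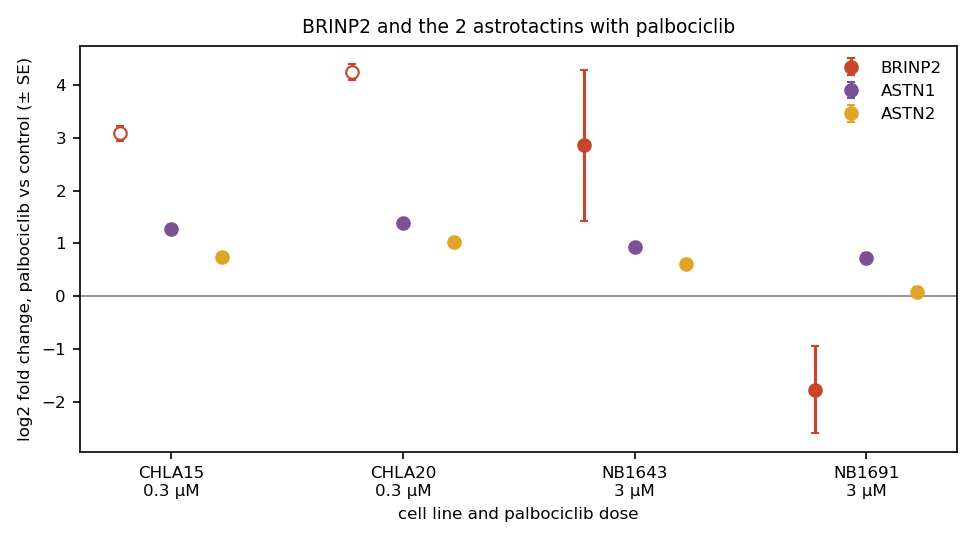
Log2 fold change with palbociclib (± SE, y axis) of BRINP2, ASTN1 and ASTN2 in the 4 cell lines with their doses (x axis); open BRINP2 points are described without a test. ASTN1 lies between 0.72 and 1.38 in the 4 lines, while BRINP2 runs from -1.77 in NB1691 to 4.25 in CHLA20.

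Within 1 Mb of BRINP2 the annotation placed 9 genes, of which 5 were tested in the palbociclib experiment. PAPPA2, a protease of insulin-like growth factor binding proteins, rose in NB1691 by 1.39 on the log2 scale (SE 0.12, edgeR adjusted p = 6.65e-08) and fell in CHLA20 by 1.73 (SE 0.55, adjusted p = 0.0317). In CHLA15 and NB1643 its changes of 1.60 (SE 0.70) and 0.14 (SE 0.37) did not pass (edgeR adjusted p = 0.146 and 0.868). Untreated NB1691 cells exceeded untreated NB1643 cells in PAPPA2 by 4.84 (edgeR adjusted p = 5.54e-14). PAPPA2 averaged 2.37 CPM over all palbociclib libraries, and its SE was larger in CHLA20 than in NB1691. The CHLA20 call is therefore the less certain one. RASAL2, a Ras GTPase-activating protein, rose by 0.23 in CHLA15, 0.29 in CHLA20 and 0.21 in NB1691 (edgeR adjusted p = 0.0340, 0.00874 and 0.0315) and fell by 0.45 in NB1643 (adjusted p = 0.000200). ASTN1 rose in each line while RASAL2 fell in NB1643, so the neighbours of BRINP2 did not share 1 pattern. BRINP1 had 2 and BRINP3 5 annotated neighbours within 1 Mb, none of which passed the count filter.

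Among 15087 genes averaging at least 1 CPM, those whose log2 CPM followed BRINP2 most closely over the 16 palbociclib libraries were NPY (r = 0.974), RAPGEFL1 (0.973), GTF2IP1 (0.972), PDE7B (0.971) and CAMTA1 (0.969). NPY, the sympathetic neuropeptide, stood at 101 and 321 CPM without and with palbociclib in CHLA15, at 77.9 and 251 CPM in CHLA20, and at 1.52 to 4.51 CPM in group means of NB1643 and NB1691. PDE7B, a cyclic AMP phosphodiesterase, went from 7.92 to 13.5 CPM in CHLA15 and from 7.93 to 14.9 CPM in CHLA20, against 3.40 to 4.51 CPM in the NB groups. GTF2IP1 is a pseudogene that can share reads with its parent gene, so its counts are uncertain. The 16 points are 4 lines in 2 arms, and the correlations reflect that grouping as a description. Over the 12 libraries without NB1691, the 5 genes ranked between 25 and 105.

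The genes most like BRINP1 were CCZ1 (r = 0.942), SLCO3A1 (0.940), UCHL1 (0.937), RDH10 (0.917) and RABIF (0.906). Over the 12 libraries without NB1691, these ranked 12, 2, 7, 29 and 76 in the same order. UCHL1, a neuronal deubiquitinase, had its highest group means in NB1691 (591 and 651 CPM without and with palbociclib) and its lowest in NB1643 (407 and 409 CPM) and CHLA15 controls (408 CPM). RDH10, the retinol dehydrogenase of retinoic acid synthesis, rose with palbociclib in CHLA15 and CHLA20 by 0.72 and 0.68 on the log2 scale (edgeR adjusted p = 1.34e-06 and 1.18e-06) and fell in NB1643 by 0.50 (adjusted p = 0.000244). CCZ1 has a near-identical copy, so its counts are uncertain. For BRINP3, with 83 counts over the 16 libraries, DPP7 (r = 0.886), FAM189B, RPS2, C15orf61 and ZNF517 led. The members themselves were less alike, at r = 0.289 for BRINP1 with BRINP2, -0.506 for BRINP1 with BRINP3 and -0.331 for BRINP2 with BRINP3.

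The retinoic acid pathway, after which the family is named, had 20 tested genes in the palbociclib experiment. Those that rose and fell were 3 and 5 in CHLA15, 9 and 3 in CHLA20, 5 and 3 in NB1643, and 6 and 3 in NB1691, where 14.2%, 13.7%, 20.3% and 17.4% of all genes rose and 15.6%, 15.9%, 19.7% and 15.5% fell. Median log2 changes were -0.041, 0.14, 0.065 and 0.10 (all genes: -0.0021, 0, 0 and 0.019). DHRS3, a retinaldehyde reductase, rose by 0.96 in CHLA20 (edgeR adjusted p = 3.81e-06), and the receptor RARB rose by 0.71 in NB1691 (6.04e-05). ALDH1A2, which makes retinoic acid, rose by 1.82 in NB1643 (edgeR adjusted p = 7.39e-05), from only 0.191 to 0.670 CPM. It fell by 0.71 in CHLA15 (edgeR adjusted p = 0.00510), from 2.80 to 1.71 CPM. The receptor RARG fell by 0.58 in CHLA15 and the receptor RXRA fell by 0.66 in CHLA20 (edgeR adjusted p = 3.04e-06 and 2.11e-06). The retinoic acid carrier CRABP1 fell by 0.60 in CHLA20 and the corepressor NRIP1 by 0.49 in NB1643 (9.31e-06 and 5.63e-06). With GSK-J4, 4 of 15 rose and 4 fell at 24 h, and 6 rose and 7 fell at 48 h, where 27.3% of all genes rose and 28% fell at 24 h, and 37.1% rose and 34.4% fell at 48 h. The receptor RARG fell by 2.88 at 48 h (edgeR adjusted p = 1.23e-24).

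Of 28 tested BMP pathway genes, 7 rose and 2 fell in CHLA15, 9 and 3 in CHLA20, 5 and 7 in NB1643, and 7 and 5 in NB1691. Among all genes, in the same order of lines, 14.2%, 13.7%, 20.3% and 17.4% rose and 15.6%, 15.9%, 19.7% and 15.5% fell. Median log2 changes of the list were 0.028, 0.11, -0.12 and 0.030 (all genes: -0.0021, 0, 0 and 0.019). FST, which encodes the activin and BMP antagonist follistatin, rose in CHLA15 and CHLA20 by 2.16 and 3.07 (edgeR adjusted p = 0.000319 and 7.71e-07), to 0.475 and 1.15 CPM. The ligand BMP4 fell by 0.89 in CHLA15 (adjusted p = 0.000472) and rose by 1.30 in NB1691 (adjusted p = 5.70e-07). With GSK-J4, 20 of 25 rose and 2 fell at 48 h, where 37.1% of all genes rose and 34.4% fell. The median was 0.57 beside 0.055 for all genes. SMAD7, an inhibitor of the pathway, rose by 1.47 and the ligand BMP7 fell by 1.65 (edgeR adjusted p = 1.97e-24 and 9.80e-32).

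Among the other genes that restrain G1, more fell than rose with palbociclib. Of 10 tested, 1 rose and 6 fell in CHLA15, 1 and 7 in CHLA20, 0 and 8 in NB1643, and 1 and 6 in NB1691, with medians from -0.45 to -0.32. Among all genes, in the same order of lines, 14.2%, 13.7%, 20.3% and 17.4% rose and 15.6%, 15.9%, 19.7% and 15.5% fell. Their medians were -0.0021, 0, 0 and 0.019. The INK4 inhibitor CDKN2D rose by 0.94 in CHLA15 and 0.66 in CHLA20 (edgeR adjusted p = 4.79e-08 and 2.73e-06), and the CIP/KIP inhibitor CDKN1C fell by 1.04 and 1.02 there (1.37e-06 and 1.63e-06). The pocket protein gene RBL1 fell by 1.55 in NB1643 and 1.09 in NB1691 (1.15e-12 and 1.63e-10). With GSK-J4, CDKN1A (p21) rose by 2.47 at 48 h, from 8.05 to 44.5 CPM (edgeR adjusted p = 1.31e-33). There 3 of 10 rose and 5 fell, beside 37.1% and 34.4% of all genes.

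Most neuronal differentiation genes rose with palbociclib. Of 23 tested, 18 rose and 1 fell in CHLA15, 20 and 2 in CHLA20, 18 and 0 in NB1643, and 17 and 3 in NB1691, with medians of 0.42, 0.58, 0.48 and 0.64. Among all genes, in the same order of lines, 14.2%, 13.7%, 20.3% and 17.4% rose and 15.6%, 15.9%, 19.7% and 15.5% fell. Their medians were -0.0021, 0, 0 and 0.019. SV2C, a synaptic vesicle protein gene, rose by 1.16 and 1.26 in CHLA15 and CHLA20 (edgeR adjusted p = 5.76e-09 and 2.79e-09), while RBFOX3, a neuronal splicing factor gene, fell by 0.82 and 0.41 there (4.86e-06 and 0.00371). GFRA3, a receptor of the GDNF family, fell by 0.71 in CHLA20 (edgeR adjusted p = 1.33e-05). DCX, a microtubule protein of young neurons, rose by 1.45 in NB1643 and 0.91 in NB1691 (4.76e-11 and 1.31e-07). The neurofilament genes NEFM and NEFL fell by 1.13 and 0.48 in NB1691 (edgeR adjusted p = 1.61e-10 and 1.62e-06). With GSK-J4, 7 of 21 rose and 12 fell at 48 h, where 37.1% of all genes rose and 34.4% fell. SCG2, a granin of secretory vesicles, rose by 1.90 and the neurofilament gene NEFH fell by 1.61 (5.18e-43 and 7.75e-35).

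Of 15 proliferation markers, 10 fell in CHLA15 and 15 fell in each of CHLA20, NB1643 and NB1691, and none rose. Among all genes, in the same order of lines, 15.6%, 15.9%, 19.7% and 15.5% fell and 14.2%, 13.7%, 20.3% and 17.4% rose. MKI67 went from 486 to 377 CPM in CHLA15, from 466 to 313 CPM in CHLA20, from 255 to 6.75 CPM in NB1643 and from 133 to 6.10 CPM in NB1691. The lines with the larger BRINP2 values were thus those with the smaller fall of MKI67, at doses of 0.3 and 3 µM that differ between the line pairs, and dose and line cannot be told apart. In the siRNA comparison none of the genes of these lists passed the test, beside 0% of all genes.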

How the data were processed

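Total RNA of neuroblastoma cell lines was sequenced as 100 bp paired-end reads. The labels call the samples cell lines but describe the RNA as drawn from xenografts, which was not resolved. The submitters' processing notes name CASAVA, STAR 2.5.3a and HTSeq, and the study's methods name GRCh37-lite and a Gencode annotation. The strand setting is not given in the sources used here. The authors deposited raw read counts per gene, not normalized, in 38 files.

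The 22 BE2C files were summed in pairs of the same replicate number or siRNA into 11 libraries, which gave 27 libraries with the 16 palbociclib files. The paired files differed by 1.48 to 1.65 chi-square units per degree of freedom, and replicate libraries by more (2.22 or over). Rows that name no gene were left out, of which reads on no feature made up 5.10 to 16.8% of a library. Each experiment was fitted separately with edgeR 4.0.16 in R 4.3.3 (TMM factors, filterByExpr with a minimum count of 10, quasi-likelihood F test, two-sided, Benjamini-Hochberg adjustment over all genes tested, threshold 0.05). BRINP1, BRINP2 and BRINP3 passed the filter in the palbociclib experiment (22133 of 50778 genes), and only BRINP1 passed in the GSK-J4 (17734 genes) and siRNA (17472 genes) experiments, where the siKDM6B libraries formed 1 group of 3. Intervals of ratios of summed counts are exact and, like floors, cover counting error only. Correlations used log2 CPM with a prior count of 2.

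DESeq2 1.42.0, limma-voom 3.58.1, other scaling factors, other filters, a replicate block and leaving out libraries were tried as alternatives, and leaving out the NB1691 libraries was chosen after seeing the data. The pipeline was tested on simulated data. Promoter sequences are from RefSeq (GRCh38.p14). The members and gene lists were chosen with earlier results of these data known. Named genes were the members, genes next to BRINP2 in the CHLA ranking, the 5 genes most correlated with each member, neighbours within 1 Mb with a mean of at least 1 CPM, ASTN1 and ASTN2, check genes, and from each list the called genes with the largest changes in each direction. The ranking over each line's own libraries was added after the values were seen. Some genes that these rules name are not reported here.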

Additional observations from a re-analysis of the deposited data

Results flagged for a closer look

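The palbociclib effect on BRINP1 differed between NB1691 and NB1643 by 0.52 on the log2 scale, by the interaction term of the edgeR fit (SE 0.12, adjusted p = 0.00278). The rise passed the test in NB1691 (0.66) and the difference of 0.14 in NB1643 did not (adjusted p = 0.227). The 4 NB1691 libraries had TMM factors of 0.772 to 0.824 against 1.06 to 1.11 in the other 12 libraries. With library totals in place of these factors, the changes were 0.58 in NB1691 and 0.11 in NB1643. Across 16 alternatives the difference between the lines ranged from 0.46 to 0.59, and its cause was not tested.

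BRINP2 in NB1691 was lower in both treated libraries (log2 change -1.77), while it was higher in both treated libraries of CHLA15, CHLA20 and NB1643. The difference from the CHLA lines was not tested, because the CHLA contrasts chose the gene and had another dose. The difference from NB1643 had an edgeR adjusted p of 0.0517. In NB1643 and NB1691 the values rest on 1 to 22 summed counts per group, and BRINP2 passed the count filter only through the CHLA libraries.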

How the results depend on the processing

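Of 256 alternative values for 22 member results, 218 kept their direction and their side of the threshold or, where untested, stayed within the spread between replicates. With a log2 change over 0.5 added to the threshold, called genes numbered 2600 in CHLA15, 2659 in CHLA20, 4292 in NB1643, 3033 in NB1691, 2566 for the difference between the NB lines, and 3855, 7487 and 3111 for GSK-J4 at 24 h, 48 h and 48 h against 24 h. In the siRNA comparison, where edgeR called 0 genes, DESeq2 called 164, no filter 84 and each file taken as a sample 2354.

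For BRINP1, library totals gave 0.93 in CHLA15, and limma-voom reversed the 24 h GSK-J4 value to -0.085. DESeq2 gave 1.61 at 48 h (adjusted p = 0.0761) and 1.60 for 48 h against 24 h (adjusted p = 0.0887). For BRINP2 in NB1643, no filter gave 2.86 (adjusted p = 0.0367). In NB1691, DESeq2 gave -1.82 (adjusted p = 0.0368) and no filter -1.77 (adjusted p = 0.0248). For the difference between these lines, DESeq2 gave -4.97 (adjusted p = 0.0121) and no filter -4.63 (adjusted p = 0.00255). For BRINP3 in CHLA20, limma-voom gave -0.63. The causes were not tested, except that no filter changes the number of genes tested.

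Leaving out 1 library at a time, BRINP1 ranged from 0.93 to 1.0002 in CHLA15 and 0.58 to 0.72 in CHLA20, and BRINP2 from 2.91 to 3.31 in CHLA15, 4.17 to 4.30 in CHLA20 and 1.77 to 5.21 in NB1643. BRINP3 ranged from -0.12 to 1.37 in CHLA15, -4.73 to 1.68 in CHLA20 and -0.74 to 0.44 in NB1643, and its direction is not fixed by these counts. BRINP2 ranged from -2.87 to -0.78 in NB1691, -6.95 to -3.52 for the difference from NB1643 (passing without NB1691 control replicate 2, adjusted p = 0.0216) and 2.85 to 6.29 between the untreated lines. BRINP1 ranged from -0.55 to 0.43 at 24 h, 1.43 to 1.77 at 48 h, 1.18 to 2.17 for 48 h against 24 h, and -0.041 to 0.48 with siKDM6B.

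Same-numbered libraries did not deviate together (correlations of -0.063 to 0.048), so the numbers do not pair them. With the replicate block, BRINP2 passed in NB1643 at 2.85 (adjusted p = 0.02502), in NB1691 at -1.91 (adjusted p = 0.0123) and for their difference at -4.75 (adjusted p = 0.00469), and BRINP3 in CHLA20 was -0.046. The block changed no other member call. The block was set within each line, so it gave no value between untreated lines. No paired analysis was possible for the siRNAs because the siKDM6B libraries share fewer than 2 numbers with siCtrl. Depth limits BRINP2 outside the CHLA lines and BRINP3 throughout.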
